A study of Rattus norvegicus with 16 samples.

Results

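Across 16 libraries of rat synovial tissue, 176 transcripts separated every library of rats given an inhibitor from every library of rats given vehicle, whichever knee the tissue came from. They were chosen by that property. After the estimated counts were filtered and scaled to CPM (counts of a transcript relative to the size of its library), a transcript was taken when the lowest of the 8 inhibitor libraries lay above the highest of the 8 vehicle libraries, or when the highest inhibitor library lay below the lowest vehicle library. Of the 26956 transcripts that passed the filter on low counts, out of 46726 in the files, 113 were higher with inhibitor (0.419%) and 63 were lower (0.234%), 0.653% in all. The contrast of inhibitor with vehicle is therefore given as a description without a test. The contrast of knees was not used in the choice, and it was tested.

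In every rat 1 knee was injected with monoiodoacetate (MIA, 2 mg dissolved in 50 µl of saline) and the contralateral one with the same volume of saline. Synovial membranes were taken 4 weeks later. Crossing the injection (saline or MIA) with the treatment (vehicle or inhibitor) gave 4 groups of 4 libraries, so the saline knees of inhibitor rats carry the drug as well. The protein inhibited was fatty acid binding protein 5 (FABP5), per the series title. Neither the compound, its dose and schedule nor the strain, sex and age of the rats is stated in the labels. They also do not say whether the 4 libraries of a group came from 4 rats, so p-values measure only the spread between these libraries, which may be technical.

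FABP5 is a small carrier inside cells that binds long-chain fatty acids and endocannabinoids and takes them to enzymes and to nuclear receptors. The synovial membrane lines the joint with fibroblast-like and macrophage-like cells and is backed by fat, vessels and nerves. MIA blocks a glycolytic enzyme and kills chondrocytes, and its injection is a common model of painful osteoarthritis. The files identify transcripts by Ensembl number and do not pair them with genes, so 4 transcripts are followed by number, and the Fabp5 transcript and markers of synovial cell types are not analysed here.

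Some library measures moved with a group or with a sample number. Library totals were 27641038 to 37063328 estimated counts with vehicle and 15614902 to 36668131 with inhibitor, and 1 count was worth 0.0279 to 0.0701 CPM. The 4 contralateral vehicle libraries stood apart from the other 12. Their 100 most abundant transcripts held 41.5% to 53.1% of the counts, against 25.7% to 34.1% elsewhere, and their scaling factors were 0.585 to 0.813, against 0.914 to 1.23. A set of 125 co-varying abundant transcripts held 19.8% to 33.0% of counts in them and 0.0358% to 4.90% elsewhere, and none of the 176 transcripts belonged to that set. On the second principal component replicate 1 of both vehicle groups and replicate 4 of both inhibitor groups lay apart. Whether these differences take part in the results was not tested beyond the values given beside them.

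The transcript with the widest gap among those higher with inhibitor was ENSRNOT00000042372.7, which is 3742 bases long. In contralateral inhibitor knees its level was 98.4, 42.5, 40.6 and 138.2 CPM in replicates 1 to 4, and in MIA inhibitor knees it was 71.0, 34.5, 33.5 and 35.8 CPM. In contralateral vehicle knees it was 20.2, 16.8, 16.4 and 8.30 CPM, and in MIA vehicle knees 16.5, 10.7, 11.2 and 14.0 CPM. The lowest inhibitor library thus held 33.5 CPM and the highest vehicle library 20.2 CPM, and within the inhibitor groups replicate 1 was high in both knees while replicate 4 was high in the contralateral knee alone. The group means were 79.9 ± 47.2 and 15.4 ± 5.03 CPM in contralateral knees, a ratio of 5.19, and 43.7 ± 18.3 and 13.1 ± 2.67 CPM in MIA knees, a ratio of 3.34 (inhibitor and vehicle, SD, n = 4 each). Its level did not differ between MIA and contralateral knees beyond the spread of the libraries, with a mean log2 change of -0.55 ± 0.28 (SE, edgeR adjusted p = 0.194).

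ENSRNOT00000034563.5, of 1388 bases, had the next widest gap. With vehicle it had 13 to 73 counts in 7 libraries and none in contralateral replicate 4. It was at 11.9, 4.83, 4.90 and 10.1 CPM in contralateral inhibitor knees and at 7.50, 3.96, 4.00 and 4.01 CPM in MIA inhibitor knees. With vehicle it was at 2.16, 0.623, 1.85 and 0 CPM in contralateral knees and at 2.04, 0.418, 0.522 and 1.13 CPM in MIA knees. As for the first transcript, the contralateral inhibitor replicates 1 and 4 and the MIA inhibitor replicate 1 were the highest 3 libraries. The ratios of inhibitor to vehicle means were 6.83 in contralateral and 4.73 in MIA knees. Its estimated counts were whole numbers in all 16 libraries, so Salmon, the program that made the estimates, gave it no fractional share of a read, whereas those of ENSRNOT00000042372.7 were not whole in any library. The change between knees was -0.44 ± 0.60 on the log2 scale (SE, edgeR adjusted p = 0.675).

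Among the transcripts lower with inhibitor, ENSRNOT00000073718.4 (7016 bases) had the widest gap because it had no count in any of the 8 inhibitor libraries. With vehicle it was at 8.93, 19.9, 25.5 and 20.6 CPM in contralateral knees and at 3.81, 3.62, 9.55 and 0.679 CPM in MIA knees. All 8 vehicle libraries held it, and MIA vehicle replicate 3 overlapped with the lowest contralateral library. Against a floor of 3 counts per inhibitor library it was at least 147-fold lower with inhibitor in contralateral knees and at least 43.8-fold lower in MIA knees, bounds that cover counting error only. Its counts were not whole in the 8 vehicle libraries, so its reads were divided with other transcripts. An estimate of 0 can come from that division, and its part in the result was not tested. With vehicle its log2 change in MIA knees was -2.08 ± 0.72 (SE, edgeR adjusted p = 0.0637). It passed 0.05 without MIA vehicle replicate 3 (edgeR adjusted p = 0.0296) and with DESeq2 (0.0170), limma-voom (0.00271) or limma-trend on TPM (0.0245). With inhibitor its change between knees could not be assessed.

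The second of them, ENSRNOT00000017314.7 (6835 bases), was at 4.46, 12.4, 12.1 and 11.4 CPM in contralateral and 5.35, 5.52, 18.3 and 9.62 CPM in MIA vehicle knees. With inhibitor it was at 0.658, 2.72, 3.14 and 0 CPM in contralateral and 0, 2.51, 2.31 and 2.62 CPM in MIA knees. The vehicle means were 6.19 times the inhibitor means in contralateral knees and 5.22 times in MIA knees. The lowest vehicle library was replicate 1 of the contralateral knees, so that 1 library set how close the treatments came. The change between knees was 0.06 ± 0.77 on the log2 scale (SE, edgeR adjusted p = 0.975), a sign that turned with DESeq2 size factors (-0.038).

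**Figure D1:**
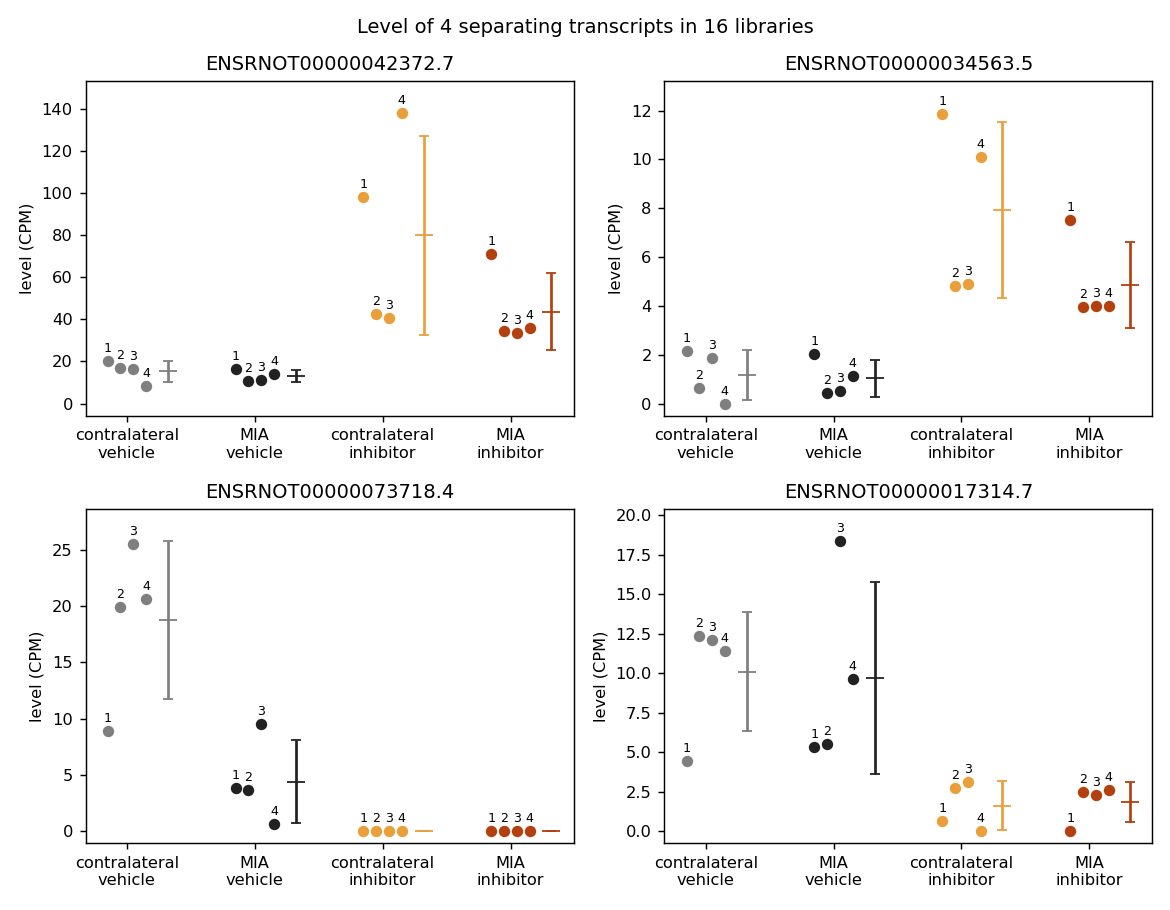
Level in CPM (vertical axes, linear and each to its own scale) of 4 transcripts in the 16 libraries, by group (horizontal axes); points are libraries with their replicate number, and bars show the mean ± SD of 4 libraries. In the upper panels every inhibitor library lies above every vehicle library, with replicates 1 and 4 of the contralateral inhibitor knees highest, and in the lower panels the order is reversed, with ENSRNOT00000073718.4 at 0 in all inhibitor libraries.

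The whole list ran from scarce to abundant transcripts. Mean levels over the 16 libraries were 0.188 to 1114 CPM for the higher transcripts, with a median of 17.6, and 0.965 to 256.6 CPM for the lower ones, with a median of 18.6, against a median of 7.61 CPM over all tested transcripts. The share of transcripts taken grew with level, from 0.207% of those under 1 CPM through 0.486% of those from 1 to 10 CPM and 0.952% of those from 10 to 100 CPM to 1.11% of those with 100 CPM or more. A count was present in all 16 libraries for 154 of the 176, 87.5%, against 68.0% over all tested transcripts. Only 1 member, ENSRNOT00000073718.4, had no count in a whole treatment. Of all tested transcripts 53 (0.197%) had no count in any inhibitor library and 15 (0.0556%) had none in any vehicle library.

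The differences were mostly moderate. On the scale of log2(CPM + 1), averaged over both kinds of knee, the higher transcripts differed by 0.28 to 3.01 with a median of 1.02, and the lower ones by -0.17 to -3.19 with a median of -0.96. The median over all tested transcripts was 0.05. The difference passed 2-fold in both kinds of knee for 35 of 113 higher and 11 of 63 lower transcripts (2.09% of all tested transcripts did so), and it passed 4-fold in both for 6 and 1. In units of the spread within groups, the median difference was 2.67 SD for the higher and 2.82 SD for the lower transcripts. The median SD within groups was 0.35 for the 176 and 0.42 over all tested transcripts. In these bulk samples fewer cells of a type and less RNA per cell cannot be told apart.

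**Figure D2:**
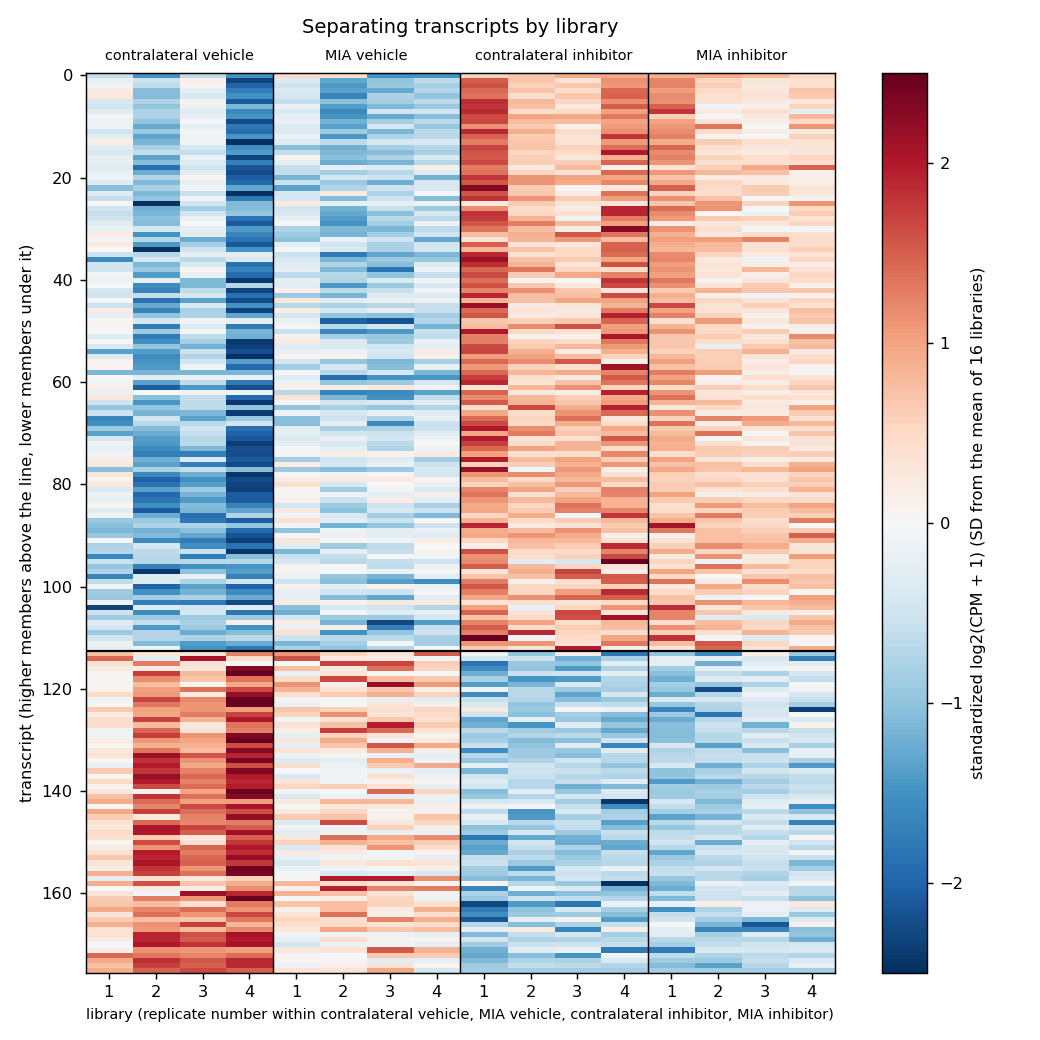
Standardized log2(CPM + 1) of the 176 transcripts (rows, sorted by difference within each direction) in the 16 libraries (columns, replicates 1 to 4 of each group); red is above and blue below the transcript's mean, in SD. Replicate 4 of the contralateral vehicle knees and replicates 1 and 4 of the contralateral inhibitor knees have the strongest colours, and replicate 1 of both vehicle groups is pale.

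The treatment difference was larger in the saline knee than in the MIA knee for nearly all of them. The median difference of the higher transcripts was 1.30 in contralateral and 0.72 in MIA knees, and that of the lower transcripts was -1.29 and -0.60. It was larger in contralateral knees for 104 of the 113 that were higher and 57 of the 63 that were lower, and over all tested transcripts this held for 72.3%. The contralateral difference was over 1.5 times the MIA difference for 109 of the 176, 61.9%, a share close to the 61.8% over all tested transcripts. The reverse held for 6, or 3.41%, against 19.7% over all. The choice itself required a difference in both kinds of knee, so nothing is read from these shares. Group means ran from contralateral inhibitor through MIA inhibitor and MIA vehicle to contralateral vehicle, from highest to lowest, for 74 higher transcripts, and in that order from lowest to highest for 37 lower ones. The rule allows few other orders, since it puts both inhibitor means on the same side of both vehicle means. The share over all tested transcripts was not computed, so nothing is read from these counts either.

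**Figure D3:**
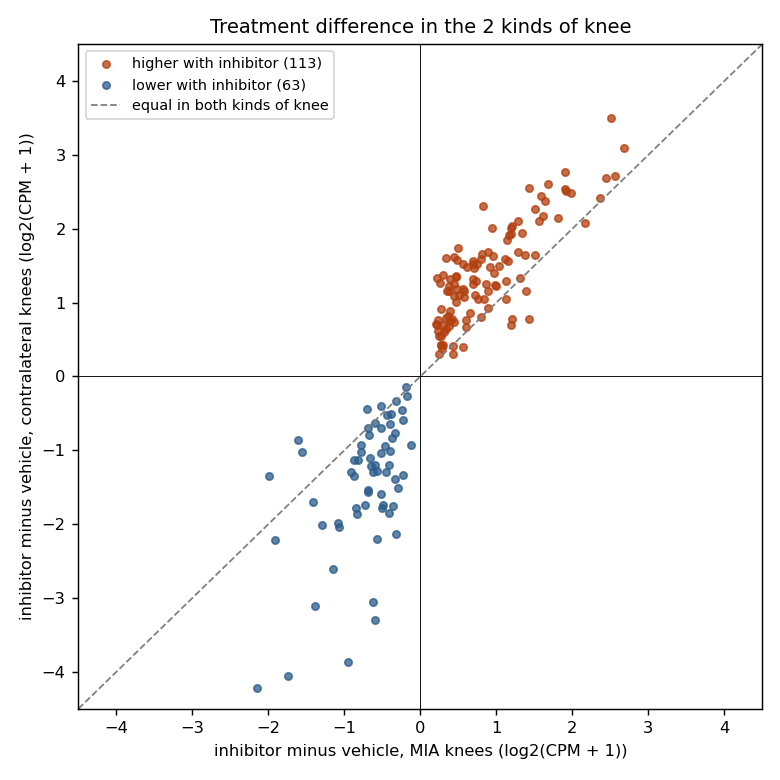
Difference of inhibitor and vehicle means of log2(CPM + 1) in MIA knees (horizontal) and contralateral knees (vertical) for the 113 higher and 63 lower transcripts; the dashed line marks equal differences. Most points lie farther from 0 on the vertical axis, 161 of 176.

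Taken on its own, each kind of knee separated many more transcripts. Inhibitor libraries lay above all vehicle libraries for 3048 transcripts in contralateral knees (11.3%) and 937 in MIA knees (3.48%), and below them for 3348 (12.4%) and 1077 (4%). Both kinds of knee separated in the same direction for 259 higher transcripts, 8.50% of the contralateral list and 27.6% of the MIA list, and for 133 lower ones, 3.97% and 12.3%. They separated in opposite directions for 133 transcripts that were higher in contralateral and lower in MIA knees and for 58 of the reverse kind. The lists of the 2 kinds of knee share no library. For the lower transcripts the overlap was near the share over all tested transcripts, 12.3% of the MIA list against 12.4% lower in contralateral knees. For the higher ones it was 27.6% against 11.3%. Of the transcripts separated in each kind of knee in the same direction, the stricter rule across all 16 libraries kept 43.6% of the higher and 47.4% of the lower ones.

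Many of the 176 were close to the limit of the rule. The gap between the treatments on the log2(CPM + 1) scale was over 0.1 for 80, over 0.25 for 25 and over 0.5 for 4, and its median was 0.09. The higher transcript nearest the limit had 0.5603 CPM in its lowest inhibitor and 0.5601 CPM in its highest vehicle library. The nearest one left out had 18.11 and 18.12 CPM. The nearest lower transcript had 5.89 CPM in its highest inhibitor and 5.90 CPM in its lowest vehicle library, and the nearest one left out had 18.96 and 18.95 CPM. Within 0.1 of the limit there were 60 higher transcripts inside and 143 outside, and 36 lower ones inside and 86 outside, so the list has no natural edge.

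A few libraries set that limit. Among the higher transcripts the inhibitor library nearest to vehicle was MIA replicate 3 for 39 and MIA replicate 4 for 20 of 113, and the vehicle library nearest to inhibitor was MIA replicate 1 for 34 and contralateral replicate 1 for 29. Among the 63 lower ones the nearest were MIA inhibitor replicate 4, for 21, and MIA vehicle replicate 1, for 20. The farthest libraries were contralateral ones. Contralateral vehicle replicate 4 was the lowest library in 74 of the 113 higher transcripts and the highest in 36 of the 63 lower ones. Contralateral inhibitor replicate 1 was the highest in 53 higher transcripts and the lowest in 24 lower ones. Contralateral vehicle replicate 4 also had the lowest scaling factor, 0.585, and the largest share of counts in its 100 most abundant transcripts, 53.1%.

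Within groups, transcripts of the same direction tended to move together. After group means were removed, the mean pairwise correlation over the 16 libraries was 0.38 among the higher and 0.34 among the lower transcripts. Between higher and lower ones it was -0.32. Among all tested transcripts it was 0.0034, but these were not split by direction, so positive and negative pairs cancel and the values are not alike. All are descriptions over libraries that share depth and scaling. The mean standardized level of the higher transcripts was 0.405 to 1.32 in inhibitor and -1.65 to -0.313 in vehicle libraries, and that of the lower ones was -0.901 to -0.550 and 0.196 to 1.73. Replicate 1 had the highest score for the higher transcripts in each of the 4 groups. In the inhibitor groups it scored 1.32 in the contralateral and 0.919 in the MIA knee, and the deviations of the higher transcripts in those knees had a correlation of 0.70. The same correlation was 0.50, 0.53 and -0.08 for numbers 2, 3 and 4 with inhibitor, and 0.30, 0.01, -0.20 and -0.14 for numbers 1 to 4 with vehicle. The summed level of the higher transcripts was 2872 ± 1084 and 3139 ± 401 CPM in contralateral and MIA vehicle knees and 8645 ± 2589 and 6623 ± 1472 CPM with inhibitor (SD, n = 4 each). The summed level of the lower ones was 3354 ± 820 and 2504 ± 251 CPM with vehicle and 1395 ± 78.1 and 1603 ± 112 CPM with inhibitor. The lower transcripts therefore varied least in the inhibitor groups, where they were low.

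Each library was also placed among transcripts chosen without it. When the rule was applied to the other 15 libraries, 180 to 386 transcripts separated, and the library left out was scored by whether it fell on its own treatment's side of the midpoint of the gap. It did so for 97.2% of 180 transcripts in contralateral vehicle replicate 4 and for 96.7% of 181 in replicate 2 of that group. The share was 77.1% to 93.0% in 9 further libraries. It was 64.9% of 259 in contralateral inhibitor replicate 4, 55.2% of 288 in MIA inhibitor replicate 3, 53.6% of 293 in MIA inhibitor replicate 4, 48.1% of 322 in contralateral vehicle replicate 1 and 37.3% of 386 in MIA vehicle replicate 1. Apart from MIA inhibitor replicate 3, these libraries are the 4 that the second component sets apart. The higher transcripts numbered 248 without MIA vehicle replicate 1, 226 without contralateral vehicle replicate 1 and 189 without MIA inhibitor replicate 3 or 4. The lower ones numbered 138 without MIA vehicle replicate 1, 96 when MIA vehicle replicate 3 or contralateral vehicle replicate 1 was left out, 99 without MIA inhibitor replicate 3 and 104 without MIA inhibitor replicate 4. Without those 4, an alternative added after the data were seen, 1147 transcripts were higher and 510 lower with inhibitor. Without the contralateral vehicle libraries, also added then, 483 were higher and 647 lower.

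**Figure D4:**
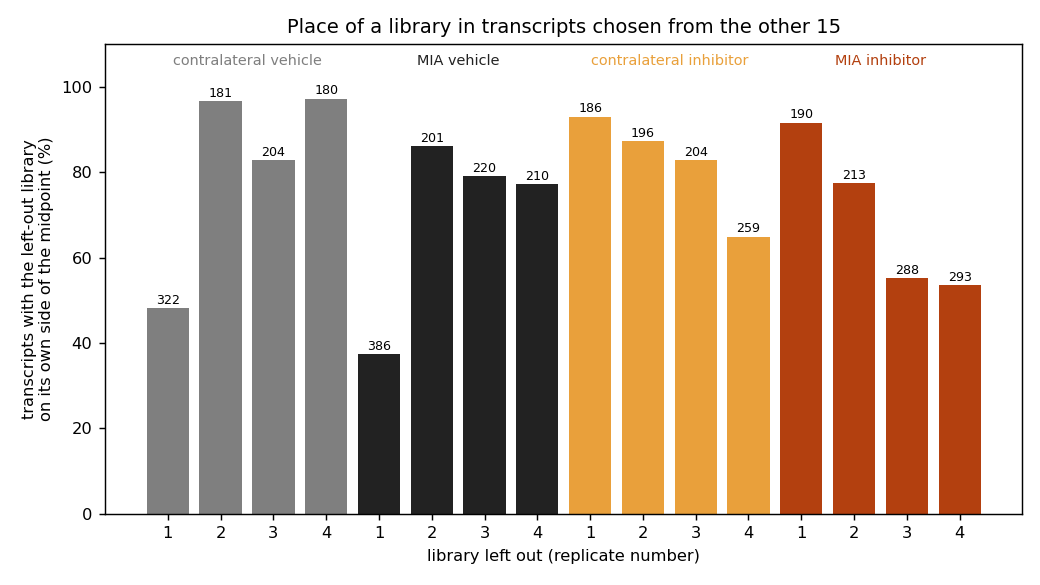
Share of transcripts (vertical axis, percent) in which a library left out of the choice fell on its own treatment's side of the midpoint between the treatments, for each of the 16 libraries (horizontal axis, replicates 1 to 4 by group); the number above a bar is how many transcripts the other 15 libraries separated. MIA vehicle replicate 1 is lowest at 37.3% and contralateral vehicle replicate 4 highest at 97.2%.

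The scaling of libraries decided much of the list. With DESeq2 size factors in place of TMM factors 87 transcripts were higher and 79 lower, which kept 87 and 62 of those found with TMM. The higher ones made up 64.2% of the list with TMM and 52.4% with DESeq2 size factors. With library totals alone 353 were higher and 22 lower (94.1% higher), of which 76 and 11 were shared with the TMM list. On the deposited TPM values, which also divide by effective length, 239 were higher and 30 lower (88.8% higher), with 42 and 7 shared. Those scalings moved the median difference of all tested transcripts from 0.05 to 0.28 and 0.23, and in contralateral knees from 0.16 to 0.55 in both. All 113 higher transcripts stayed higher on average in each of the 4 scalings. Of the 63 lower ones 60 stayed lower with totals alone and with TPM. For the higher ones this was little of a test. Totals and TPM moved the median of all transcripts up, and DESeq2 size factors moved it only to -0.0055. The smallest difference of a higher transcript was 0.28. Complete separation in all 4 scalings was found for 34 higher and 7 lower transcripts. These included ENSRNOT00000042372.7, ENSRNOT00000034563.5 and ENSRNOT00000073718.4, while ENSRNOT00000017314.7 separated with TMM and DESeq2 size factors alone.

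MIA knees were then compared with contralateral knees, a contrast the choice did not use. A transcript that separates the treatments in both knees has little room for a difference between knees, so a low share of changed transcripts is partly built in. A transcript is called where the adjusted p of edgeR's quasi-likelihood test over all 26956 transcripts was under 0.05. With vehicle 43 of the 176 were called, 24.4%, and over all tested transcripts 29.2% were. The order of these shares turned without the filter on low counts (21.6% and 18.7%), with limma-trend on TPM (55.1% and 54.2%) and without contralateral vehicle replicate 1 (34.7% and 34.1%). Of the 63 lower transcripts 26 fell and 1 rose in MIA knees (13.2% and 15.9% over all), a direction that turned with limma-trend on TPM, where 6 fell and 21 rose. The 26 had log2 changes of -0.43 to -3.72, with a median of -1.06 and a median SE of 0.23. Of the 113 higher transcripts 15 rose and 1 fell in MIA knees (70 and 0 with limma-trend on TPM), the 15 with a median log2 change of 0.71. The largest, 5.98, starts from a level near the floor in contralateral vehicle knees, so its size is poorly determined. The vehicle libraries enter both this contrast and the choice of transcripts, so the 2 share them.

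Leaving out libraries moved the rises more than the falls. With single libraries left out, 19 to 30 of the lower transcripts were called lower with vehicle. Of the higher transcripts 1 was called higher without contralateral vehicle replicate 4, 2 without replicate 2 and 9 without replicate 3 of that group, 4 without MIA vehicle replicate 1, 9 without MIA vehicle replicate 2 or 4, and 30 without contralateral vehicle replicate 1. With DESeq2 size factors 9 rose and 3 fell. In place of 43, the total was 25 without contralateral vehicle replicate 4 and 28 without MIA vehicle replicate 2, and 20.6% and 22.3% of all tested transcripts were then called. The share over all moved with the same libraries, from 20.6% without contralateral vehicle replicate 4 to 34.1% without contralateral vehicle replicate 1. With vehicle the MIA libraries did not overlap with the contralateral ones in 14 of the 176 where they were higher (17.2% of all tested transcripts) and in 21 where they were lower (14.9%).

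With inhibitor no member of the list was called between knees by edgeR, where 0.00371% of all tested transcripts were, and 8 had an unadjusted p under 0.05, 4.55% against 5.38% over all. DESeq2 called 0 of the list and 1.22% of all tested transcripts. Limma-voom called 0 of either, and limma-trend on TPM called 1 of the list and 0.0927% over all. The median log2 change in MIA knees was -0.28 for the higher and 0.07 for the lower transcripts. Of the 113 higher ones 103 were lower in MIA than in contralateral inhibitor knees without passing the test (13261 of 26956 over all). Contralateral inhibitor replicates 1 and 4 were the highest library in 53 and 33 of the 113, which moved together, so these are not 103 separate observations. Libraries did not overlap between knees for 3 transcripts above (2.57% of all) and 4 below (1.44%). The 26 lower transcripts that fell with vehicle had a median log2 change of 0.05 with inhibitor, from -0.45 to 0.38, and 10 of them were negative. The 15 higher ones that rose with vehicle had a median of -0.14 with inhibitor, and 3 were positive. Both sets were picked for their change with vehicle, which alone favours a smaller change with inhibitor. Like values over all tested transcripts were not computed, so nothing is read from the smaller changes. The single call with 1 library left out came without contralateral inhibitor replicate 4.

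**Figure D5:**
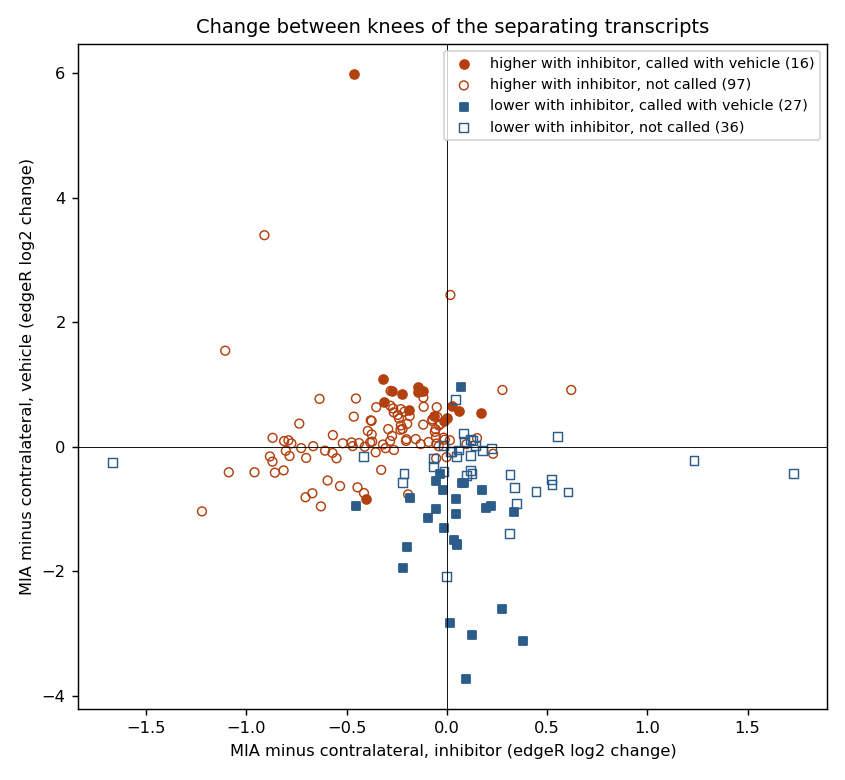
edgeR log2 change of MIA against contralateral knees with inhibitor (horizontal) and with vehicle (vertical) for the 176 transcripts; filled symbols passed an adjusted p of 0.05 with vehicle, and ENSRNOT00000073718.4, which had no inhibitor count, is drawn at 0 on the horizontal axis. The called lower transcripts (squares) lie under 0 on the vertical axis except 1, the called higher ones (circles) lie above it except 1, and none was called on the horizontal contrast.

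Averaged over both treatments, 19 of the 176 were called (19.7% over all), namely 3 that rose (10.3% over all) and 2 that fell in MIA knees among the higher transcripts and 14 that fell among the lower ones (9.33% over all fell). Their number was 39 without contralateral vehicle replicate 1 (22.2% against 26.6% over all). It was 12, 6.82% against 14.4% to 15.7% over all, without contralateral inhibitor replicate 1, MIA inhibitor replicate 2, MIA vehicle replicate 2 or MIA vehicle replicate 4. No member separated all 8 MIA from all 8 contralateral libraries, which the rule makes impossible, so nothing is read from it. For each member the rule puts libraries of both knees on either side of the gap. Over all tested transcripts 0.735% separated the knees in the higher and 0.108% in the lower direction.

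The interaction test sets the change between knees with inhibitor against that with vehicle. The same quantity is the treatment difference in MIA knees less that in contralateral knees. The choice required a treatment difference in both kinds of knee, so the calls are given as a description and nothing is read from them. The change between knees differed between treatments for 13 of the 176 by the interaction test (9.9% over all). These were 11 lower transcripts with a more positive (5.89% over all) and 2 higher transcripts with a more negative change with inhibitor (4% over all). With limma-trend on TPM 3 lower transcripts were more positive and 6 more negative, and 49 higher ones were more negative, in all 33.0% of the list against 28.3% of all tested transcripts. The 11 had a median log2 change of -1.30 in MIA knees with vehicle and of 0.10 with inhibitor, and their interactions ran from 0.67 to 3.82 with edgeR adjusted p-values of 0.00714 to 0.0483. All 11 were among the 26 that fell with vehicle. Without contralateral vehicle replicate 1, a library of the second-component group, 47 were called, 26.7% against 19.6% over all, so the order of the shares turned. It also turned without the filter (6.25% and 5.26%) and without contralateral inhibitor replicate 2 (5.68% and 5.21%). Without MIA inhibitor replicate 4 or MIA vehicle replicate 2, 8 were called, 4.55% against 6.53% and 5.28% over all. DESeq2 called 27, 15.3% against 18.3% over all. The interaction of ENSRNOT00000073718.4 could not be assessed, since it had no count in either inhibitor group.

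Length and the division of reads set the 176 little apart. The median length was 2423 bases for the higher and 2729 for the lower transcripts, against 2681 over all tested transcripts, and the ranges were 380 to 8390 and 865 to 15723 bases. Estimated counts were whole in all 16 libraries for 30 of the 176, 17.0%, against 11.8% over all, and not whole in any for 82, 46.6%, against 38.9%. For those 82 the estimate rests on how Salmon divided reads with other transcripts in every library. The typical gap between length and effective length, which Salmon models per library, was 173 to 212 bases with inhibitor and 185 to 294 with vehicle, and it overlapped between the treatments. Contralateral vehicle replicates 2 and 3 stood apart at 294 and 291 bases, and the other vehicle libraries were at 185 to 213.

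Other transcripts followed the 4 named ones closely without separating the treatments. The 5 most alike of the transcripts outside the list, by Pearson correlation of log2(CPM + 1) over 16 libraries that share groups and scaling, reached 0.960 to 0.967 for ENSRNOT00000042372.7 and 0.974 to 0.981 for ENSRNOT00000034563.5. Their treatment differences were 1.28 to 1.93 and 1.53 to 2.64 on the log2 scale. For ENSRNOT00000073718.4 and ENSRNOT00000017314.7 the correlations were 0.921 to 0.961 and 0.871 to 0.901, with differences of -2.83 to -1.01 and -2.46 to -0.72. The choice by correlation fixes the direction of these differences.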

How the data were processed

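Total RNA was sequenced with a directional kit on a NextSeq instrument, per the labels' protocols. The build was mRatBN7.2 and the tools were Salmon 1.4.0, DESeq2 1.30.0 and fastp 0.20.1, per the submitters' processing notes. Salmon's options and transcript set are not stated there. As deposited by the authors, the estimated counts (expected counts) are unscaled, the TPM values are divided by effective length, and the lengths are in bases, per the file headers. Between 26.7% and 34.8% of values above 0 were whole within 1e-06. None of the reference table's entries held an Ensembl identifier (0 matches), so the tests ran on transcripts and the planned gene lists were not used.

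Counts were rounded, filtered by edgeR's filterByExpr (4 groups) and scaled by TMM. Knee contrasts used edgeR's quasi-likelihood test (edgeR 4.0.16, limma 3.58.1, DESeq2 1.42.0, R 4.3.3; robust, 1 mean per group, Benjamini-Hochberg over 26956 transcripts, two-sided), checked on simulated data. The members, lists and alternatives were chosen with earlier results of these data known. The 4 named transcripts had the widest gap on log2(CPM + 1), 2 in each direction, with at least 1 CPM in the higher treatment. When a library was left out of the choice, scaling and filter stayed those of all 16. Deviations of same-numbered libraries correlated with inhibitor at 0.42, 0.23, 0.25 and 0.62 for numbers 1 to 4, where the highest value with another number was 0.25, 0.22, 0.12 and -0.28. With vehicle they correlated at 0.217, 0.107, 0.118 and 0.012, where the highest value with another number was -0.079, 0.143, 0.121 and 0.046. Vehicle numbers 2 to 4 thus lay under their other-numbered value, number 3 by little. The inhibitor numbers were taken as pairs from these values, not from the labels, and inhibitor number 2 was barely above its other-numbered value. The tests above use no pairing, and the replicate block, an alternative, used all 8 pairs, those with vehicle by number alone. No 2 libraries were identical (at most 1.28% of values above 0 were equal).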

Additional observations from a re-analysis of the deposited data

Results flagged for a closer look

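In 4 of the 26 groups of 4 libraries looked at, 1 library lay far from the other 3 by Dixon's ratio (critical value 0.829). Chance gives about 1 in 20 for independent groups. These groups share libraries, and most hold levels of transcripts that the rule chose, so that rate does not apply here. MIA inhibitor replicate 1 stood apart in 3 of the 4. It held 71.0 CPM of ENSRNOT00000042372.7, against 33.5 to 35.8 CPM in the other libraries of its group. It held 7.50 CPM of ENSRNOT00000034563.5, against 3.96 to 4.01 CPM. It held 0 CPM of ENSRNOT00000017314.7, against 2.31 to 2.62 CPM. In contralateral vehicle knees replicate 1 held 4.46 CPM of ENSRNOT00000017314.7, against 11.4 to 12.4 CPM.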

How the results depend on the processing

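The number of separating transcripts, 113 higher and 63 lower, was 353 and 22 with library totals alone, 239 and 30 on TPM, 1147 and 510 without the 4 libraries apart on the second component and 483 and 647 without the contralateral vehicle libraries. With single libraries left out it was 116 to 248 and 64 to 138. The calls between knees were 43 with vehicle, 0 with inhibitor, 19 on average and 13 for the interaction. With limma-trend on TPM they were 97, 1, 63 and 58, and 54.2%, 0.0927%, 42.5% and 28.3% of all tested transcripts were called. Leaving out single libraries gave 25 to 61, 0 to 1, 12 to 39 and 8 to 47 calls. DESeq2 called 27 for the interaction. Without the 4 libraries apart, 1, 43 and 43 were called with inhibitor, on average and for the interaction. These were 0.568%, 24.4% and 24.4% of the list, against 0.331%, 33% and 25.1% of all tested transcripts. With the replicate block, which pairs both knees of a number, the 4 counts were 52, 0, 18 and 17. Of all tested transcripts 34%, 0%, 23.5% and 11% were then called. The block thus moved none of the 4 counts by over 1.5 times. Its vehicle pairs rest on the numbers alone, since the correlations of deviations did not set numbers 2 to 4 apart. The knee change of ENSRNOT00000017314.7, 0.06, was -0.038 with DESeq2 size factors, -0.035 with DESeq2, -0.15 with limma-voom, -0.11 with the replicate block, -0.38 without the 4 libraries apart and -0.19 to 0.32 with single libraries left out. The cause was not tested. Alternatives with DESeq2 size factors or no filter kept all 6 counts within 1.5 times. Transcripts near 1 CPM rest on few counts, which limits how small a gap can be told from counting error.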
